A study of Homo sapiens with 3 samples.

Results

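The 9 transcription factors described here belong to lung, airway and foregut lineages and were chosen by gene symbol: TP63, SOX2, NKX2-1, FOXA1, FOXA2, GATA6, SOX9, HNF4A and KLF5. All 9 were listed in at least 1 library, among 18856 listed genes. The 3 libraries came from 2 human cell lines, each library from 10 pg polyA+ mRNA diluted from bulk mRNA. HBE is a human bronchial epithelial cell line, sequenced by LIEA, the low-input equal-amplification method on an Ion Torrent sequencer, and by Smart-seq2, which amplifies full-length cDNA before library construction, on an Illumina sequencer. A549 is a human lung adenocarcinoma cell line, described as alveolar basal epithelial, and was sequenced by LIEA. No genotype or treatment was given for the lines. The libraries are named HBE LIEA, HBE Smart-seq2 and A549. A comparison of A549 with HBE Smart-seq2 differs in method as well as in line, and these cannot be told apart. Each condition had 1 library, so no difference below has a replicate check and no p-value is given. Intervals are exact, at 95%, and cover counting error only. PCR copies of a molecule are counted as separate reads, which these intervals do not take into account.

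The deposited values are log2 rpkM, that is reads per kilobase of transcript and per 1000000 mapped reads. The reads behind them were recovered from the values, which gave 4605855 mapped reads in the HBE LIEA library, 9845150 in the HBE Smart-seq2 library and 4154060 in the A549 library. Levels of different genes are compared as rpkM, and 1 gene between libraries as rpm, reads per 1000000 mapped reads. The smallest level taken as detectable, 3 reads, was 0.651 rpm in HBE LIEA, 0.722 in A549 and 0.305 in Smart-seq2. A gene that is not listed had no reads, and it was set to 3 reads where a fold was needed. That fold is a bound at 3 reads and leaves out counting error.

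Lineage factors of this kind bind the regulatory regions of the genes that define an epithelium and hold cells in that identity. In the lung, TP63 and SOX2 mark the proximal airway and its basal stem cells, whereas NKX2-1 is required for lung fate and is kept in alveolar type II cells, where it drives the surfactant genes. FOXA1, FOXA2 and GATA6 act across foregut endoderm, SOX9 marks the distal tips of the developing lung, HNF4A is a nuclear receptor of liver and gut that the normal adult lung largely lacks, and KLF5 is a zinc finger factor of many proliferating epithelia.

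The libraries first differed in which factors they contained. With at least 10 reads as the criterion of the study for a quantified gene, 6 of the 9 factors were quantified in HBE LIEA, 8 in A549 and 5 in HBE Smart-seq2. Of all 18856 listed genes, 12328, 12599 and 12944 were quantified in the same order, so HBE Smart-seq2 had the most genes but the fewest factors. FOXA1, GATA6, SOX9, TP63 and KLF5 were quantified in all 3 libraries. FOXA2 and SOX2 reached 10 reads in A549 and in neither HBE library. NKX2-1 reached 10 reads in none of the 3.

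**Figure D1:**
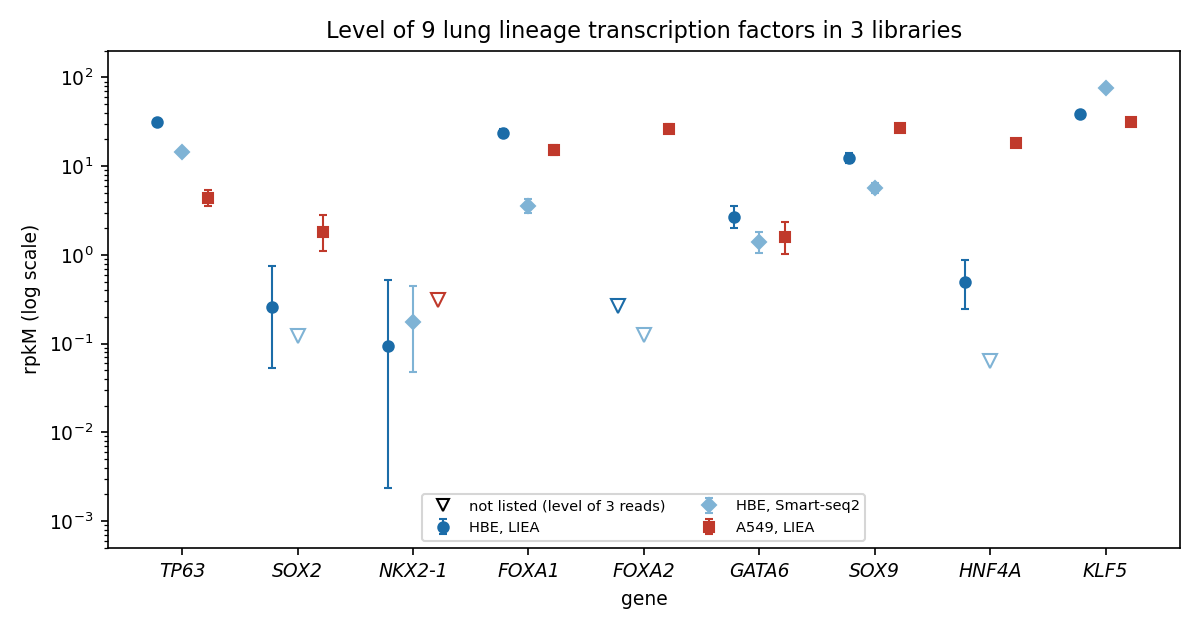
Level in rpkM (log scale) of the 9 transcription factors in HBE LIEA, HBE Smart-seq2 and A549. Symbols give the value of 1 library, bars its 95% Poisson interval, and open triangles the level of 3 reads where a gene was not listed: FOXA2 and HNF4A reach 26.5 and 18.5 rpkM in A549 and are at or near the detection limit in HBE, and TP63 is lower in A549 than in both HBE libraries.

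Since HNF4A, SOX2 and TP63 differ most between the lines among the factors with a sequence in the RefSeq table used, the 250 bases before their annotated starts are shown first. The windows are RefSeq sequences of GRCh38.p14, and each matched exactly once in GRCh37, the build of the coordinates given here. HNF4A has 2 windows, 45.5 kb apart, at its upstream and its downstream promoter. Capitals mark 4 motifs on either strand: TGTTTAC, a forkhead core bound by FOXA factors; ACAAAG, a SOX core; GGGCGG, the GC box bound by KLF and SP factors; and CCAAT. No marked motifs overlapped in these windows.
HNF4A, upstream window, chr20:42984089-42984338, plus strand: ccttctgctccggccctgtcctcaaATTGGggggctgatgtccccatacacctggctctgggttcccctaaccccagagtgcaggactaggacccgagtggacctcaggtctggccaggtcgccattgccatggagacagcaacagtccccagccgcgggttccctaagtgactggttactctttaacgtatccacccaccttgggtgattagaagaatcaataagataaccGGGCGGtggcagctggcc
HNF4A, downstream window, chr20:43029629-43029878, plus strand: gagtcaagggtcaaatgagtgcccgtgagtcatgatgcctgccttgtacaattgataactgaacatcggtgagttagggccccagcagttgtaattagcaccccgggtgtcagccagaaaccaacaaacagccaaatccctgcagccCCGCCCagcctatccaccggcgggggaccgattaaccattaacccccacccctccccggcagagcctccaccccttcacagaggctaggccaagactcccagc
SOX2, chr3:181429463-181429712, plus strand: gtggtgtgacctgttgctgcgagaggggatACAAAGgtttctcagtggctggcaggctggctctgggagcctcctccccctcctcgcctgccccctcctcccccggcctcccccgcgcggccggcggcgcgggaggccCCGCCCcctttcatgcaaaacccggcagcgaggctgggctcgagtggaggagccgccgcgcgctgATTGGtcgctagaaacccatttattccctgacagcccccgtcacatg
TP63, chr3:189348928-189349177, plus strand: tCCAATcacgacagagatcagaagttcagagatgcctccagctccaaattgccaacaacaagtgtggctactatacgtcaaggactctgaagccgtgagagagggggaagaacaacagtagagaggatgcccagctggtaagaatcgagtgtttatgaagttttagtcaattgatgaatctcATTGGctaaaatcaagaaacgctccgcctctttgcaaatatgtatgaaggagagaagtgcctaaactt

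The forkhead core TGTTTAC was in 2.98% of all 35116 windows of the same length and in none of the 4 shown, though NKX2-1 had it at bases 121 to 127 of 1 of its windows. ACAAAG was in 13.7% of all windows and in that of SOX2. The GC box, in 42.6% of all windows, was in both HNF4A windows and in that of SOX2. CCAAT, which 32.0% of windows held, was in the upstream HNF4A window, in that of SOX2 and, with 2 matches, in that of TP63. The TP63 window had a GC content of 44% against 68.8% for SOX2 and a median of 58.0% over all windows. It lies before the most upstream start of the gene, so it does not describe the internal promoter of the short TP63 isoforms that basal cells use. A match is a description of the letters and not a bound site. FOXA2 and SOX9 are not in the table.

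HNF4A had 369 reads in A549, 11 in HBE LIEA and 0 in HBE Smart-seq2. This is 18.5 rpkM in A549 (interval 16.6 to 20.4) and 0.496 rpkM in HBE LIEA (0.248 to 0.888). For 0 reads in Smart-seq2 the upper 95% limit was 0.0778 rpkM, and 3 reads would be 0.0633 rpkM. The A549 value stood above both HBE values, with intervals that did not overlap. By LIEA, HNF4A was 37.2-fold higher in A549 (interval 20.5 to 75.2). Against HBE Smart-seq2, with 0 set to 3 reads, it was 291.5-fold higher. In A549 it exceeded 70.5% of the quantified genes, whereas in HBE LIEA it exceeded 1.10%. The 11 reads in HBE were just over the criterion, and a criterion of 20 reads would leave HNF4A quantified in A549 alone.

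FOXA2, a forkhead pioneer factor of foregut endoderm, liver and lung, had 267 reads in A549 and was not listed in either HBE library. Its level in A549 was 26.5 rpkM (23.4 to 29.9), above 78.7% of quantified genes. The absence of reads allows up to 0.269 rpkM in HBE LIEA and 0.126 rpkM in Smart-seq2. FOXA2 was thus at least 98.7-fold higher in A549 than in HBE LIEA and at least 210.9-fold higher than in Smart-seq2. The closest listed gene on its left side, the long noncoding RNA LINC00261, 2356 bases away on the same strand, had 27 reads in A549 and 0 in both HBE libraries. The closest on the right side, THBD, 460177 bases away, had 201 reads in A549, 18 in HBE LIEA and 8 in Smart-seq2. These neighbours were picked after their values were seen.

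SOX2, an HMG box factor of the proximal airway and of pluripotent cells, was low in every library. It had 19 reads in A549, 3 in HBE LIEA and 0 in Smart-seq2. In A549 its level was 1.82 rpkM (1.10 to 2.84), which exceeded 12.7% of the quantified genes, and in HBE LIEA it was 0.259 rpkM (0.0535 to 0.758). The ratio of A549 to HBE by LIEA was 7.02, with a wide interval from 2.07 to 37.1 because of the 3 reads. Against Smart-seq2, with 0 set to 3 reads, SOX2 was 15.01-fold higher. The transcript of SOX2 lies within the annotated locus of SOX2-OT on the same strand, and whether reads were shared was not tested. SOX2-OT had 1 read in A549, 0 in HBE LIEA and 2 in Smart-seq2.

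TP63, the factor that maintains basal cells of stratified and airway epithelium, showed the opposite order. HBE LIEA had 706 reads and HBE Smart-seq2 691, against 90 reads in A549. The levels were 31.2 rpkM (29.0 to 33.6) and 14.3 rpkM (13.3 to 15.4) in the HBE libraries and 4.41 rpkM (3.55 to 5.42) in A549. Both HBE values lay above the A549 value, with intervals apart. TP63 was 7.07-fold lower in A549 than in HBE by LIEA (5.67 to 8.91) and 3.24-fold lower than in HBE Smart-seq2 (2.60 to 4.08). It ranked above 79.6% of the quantified genes in HBE LIEA, 64.9% in Smart-seq2 and 31.1% in A549. The authors merged splice variants, so the long and short isoforms of TP63 cannot be told apart in these values.

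SOX9, the HMG box factor of distal lung tips and of cartilage, had 442 reads in A549, 225 in HBE LIEA and 219 in Smart-seq2. Its level was 27.0 rpkM (24.6 to 29.7) in A549, 12.4 rpkM (10.8 to 14.2) in HBE LIEA and 5.65 rpkM (4.93 to 6.45) in Smart-seq2. A549 was the highest of the 3, 2.18-fold above HBE by LIEA (1.85 to 2.57) and 4.78-fold above Smart-seq2 (4.06 to 5.65). The HBE libraries themselves differed by 2.20-fold (1.82 to 2.66), as much as A549 and HBE did by LIEA.

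FOXA1, the forkhead factor closest to FOXA2, did not share its pattern. It had 372 reads in HBE LIEA, 213 in A549 and 119 in HBE Smart-seq2, or 23.9 rpkM (21.5 to 26.5), 15.2 rpkM (13.2 to 17.4) and 3.58 rpkM (2.96 to 4.28). The A549 value therefore lay between the HBE values, 1.58-fold below LIEA (1.33 to 1.87) and 4.24-fold above Smart-seq2 (3.37 to 5.35). Its direction between the lines depends on which HBE library is taken.

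GATA6, a zinc finger factor of endoderm that acts with NKX2-1 in alveolar epithelium, was low and close in the 3 libraries. It had 47 reads in HBE LIEA, 25 in A549 and 52 in Smart-seq2, or 2.70 rpkM (1.99 to 3.59), 1.59 rpkM (1.03 to 2.35) and 1.40 rpkM (1.04 to 1.83). Its ratio of A549 to HBE was 0.590 by LIEA (0.348 to 0.978) and 1.14 against Smart-seq2 (0.678 to 1.87). The second interval includes equality, and the direction again depends on the HBE library. The antisense GATA6-AS1, which overlaps GATA6, had at most 3 reads in a library.

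KLF5 had the highest rpkM of the 9 factors in each of the 3 libraries, though in A549 its interval overlapped those of SOX9 and FOXA2. It had 635 reads in HBE LIEA, 465 in A549 and 2650 in HBE Smart-seq2. The levels were 38.7 rpkM (35.7 to 41.8), 31.4 rpkM (28.6 to 34.4) and 75.5 rpkM (72.6 to 78.4), above 83.9%, 81.8% and 90.9% of the quantified genes. A549 was 1.23-fold below HBE by LIEA (1.09 to 1.39) and 2.40-fold below Smart-seq2 (2.18 to 2.66).

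NKX2-1, the homeodomain factor of thyroid and lung, was at the limit of detection throughout. It had 1 read in HBE LIEA, 4 in HBE Smart-seq2 and 0 in A549. Its level in A549 had an upper 95% limit of 0.380 rpkM, and 3 reads would be 0.309 rpkM. No difference between the lines was detectable at this depth. The closest listed gene on its right, its paralog NKX2-8, had 11 reads in HBE LIEA, 2 in A549 and 52 in Smart-seq2.

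Ordered by rpkM, A549 had KLF5, SOX9 and FOXA2 first, with overlapping intervals. HNF4A and FOXA1 followed with overlapping intervals, then TP63, and last SOX2 and GATA6, which again overlapped. In HBE LIEA the order was KLF5, TP63, FOXA1, SOX9 and GATA6, all with intervals apart, followed by HNF4A, SOX2 and NKX2-1, whose intervals overlapped. HBE Smart-seq2 gave KLF5, TP63, SOX9, FOXA1 and GATA6, so both HBE libraries began with KLF5 and TP63, and only the order of FOXA1 and SOX9 differed among these 5.

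To set these differences against the rest of the transcriptome, a gene was called different between the lines when A549 was at least 4-fold above, or below, both HBE libraries, on rpm. Of the 8 factors with at least 10 reads in a library, 3 were higher in A549 by this rule, namely FOXA2, HNF4A and SOX2. Of all 14484 genes with that many reads, 8.79% were higher. None of the 8 factors was lower in both comparisons, while 4.29% of all genes were. Against HBE LIEA alone, TP63 was also past 4-fold, as 1 factor lower where 7.52% of all genes were, and the same 3 were higher where 10.9% were. Against HBE Smart-seq2 alone, FOXA1 and SOX9 joined the 3, which makes 5 factors higher where 21.3% of all genes were, and none was lower where 11.9% were. The factors are few, and factors that reached 10 reads in A549 alone could be called in 1 direction only, so the counts describe these genes.

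**Figure D2:**
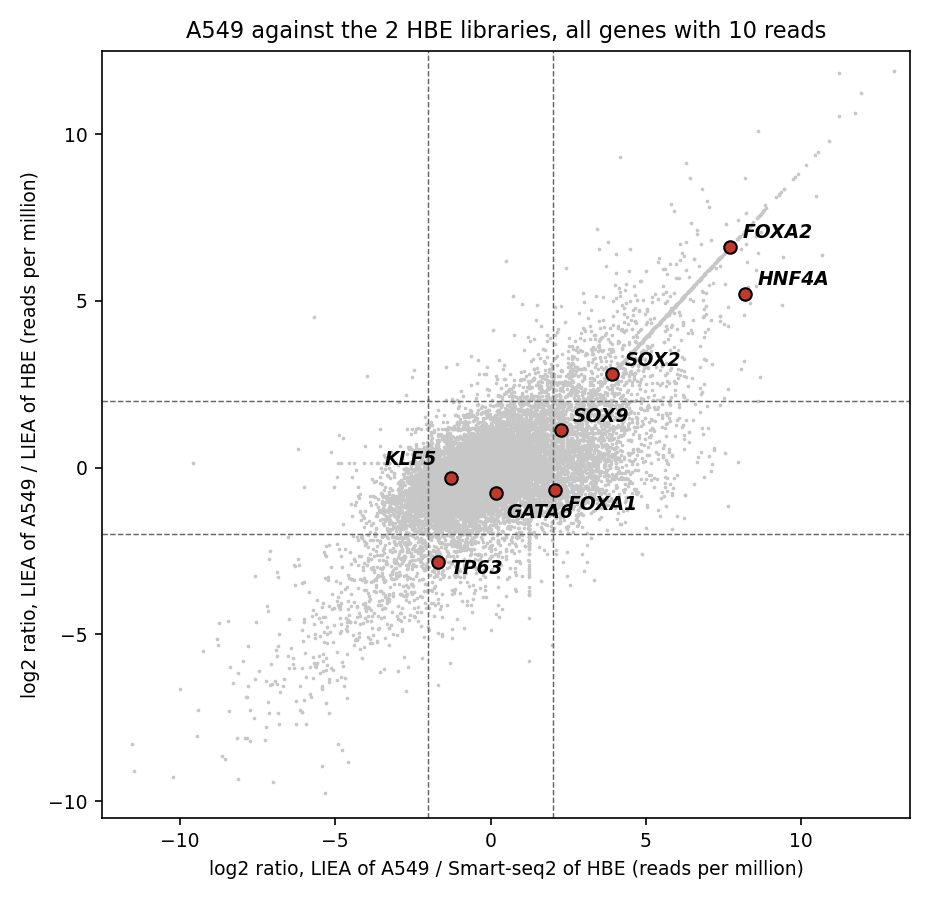
Log2 ratio of A549 to HBE Smart-seq2 (x axis) and to HBE LIEA (y axis), on rpm with counts under 3 set to 3, for 14484 genes (grey) and the 8 factors with at least 10 reads in a library (red). Dashed lines mark 4-fold (log2 of 2); FOXA2, HNF4A and SOX2 lie past both lines at the upper right, TP63 past the lower horizontal line only, and both axes share the A549 library.

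The size of a difference between methods was measured in HBE, which was sequenced by both. Of the 6 factors with at least 10 reads in an HBE library, FOXA1 and HNF4A were at least 4-fold higher by LIEA, where 14.9% of all 13545 genes were, and none was at least 4-fold lower, where 5.22% were. FOXA1 was 6.68-fold higher by LIEA (5.42 to 8.28). HNF4A, with 11 reads against 0, was 7.84-fold higher with 0 set to 3 reads. With counting error of the 11 reads alone and the 3 reads held fixed, its log2 range was 1.97 to 3.81, which reaches below 4-fold. This range is not an exact interval of the ratio, which was not computed for 0 reads. SOX9 (2.20-fold), TP63 (2.18-fold, 1.96 to 2.43) and GATA6 (1.93-fold, 1.27 to 2.92) were also higher by LIEA, and KLF5 was 1.95-fold lower (1.79 to 2.13). The median absolute log2 ratio between the methods over all genes was 1.0, against 0.80 between A549 and HBE by LIEA, so a 2-fold difference is common between libraries of the same line.

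**Figure D3:**
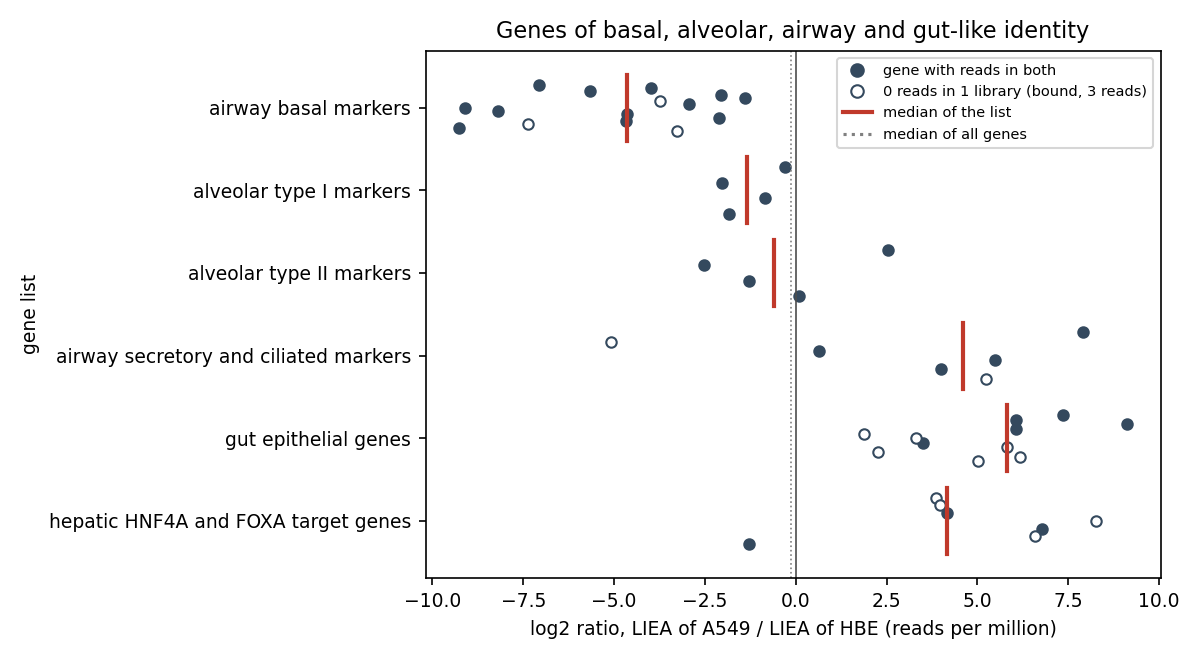
Log2 ratio of A549 to HBE LIEA, on rpm, for the genes of 6 lists with at least 10 reads in either library; each circle is 1 gene, open circles are bounds at 3 reads for genes with 0 reads in 1 library, and red bars are medians. Airway basal markers lie left of 0 and the gut epithelial genes right of it; all 11 gut genes shown had 10 reads in A549 and 0 of them in HBE LIEA, so their side follows from the read minimum.

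Most airway basal markers, a programme that TP63 is known to maintain, were lower in A549, as TP63 was. Of 15 airway basal markers, all with at least 10 reads in a library, 13 were at least 4-fold lower in A549 than in both HBE libraries. None was higher, where 4.29% of all genes were lower and 8.79% higher. The median log2 ratio of the 15 was -4.66 by LIEA against -0.13 for all genes. All 15 had at least 10 reads in both HBE libraries and 8 in A549, so 7 of the 13 passed the read minimum through HBE only and could not have been called higher. KRT17, a keratin of basal and activated epithelium, was at 1097 rpkM in HBE LIEA, 5679 in Smart-seq2 and 1.99 in A549. KRT5, the keratin that defines basal cells, was at 551.9, 406.6 and 1.88 rpkM in the same order, 293.3-fold lower in A549 by LIEA. The calcium-binding protein S100A2 was at 617.3, 1209 and 1.0 rpkM, and LAMB3, a chain of laminin 332, at 121.9, 278.6 and 28.2 rpkM. KRT14 and SNAI2 had reads in both HBE libraries and 0 in A549. Reads of KRT14 and KRT17 can be shared with near-identical keratin copies, so these values are uncertain. The integrins ITGB4 and ITGA6, which anchor basal cells to the basement membrane, were not past the rule. ITGB4 was at 80.6 rpkM in A549, 210.8 in HBE LIEA and 43.7 in Smart-seq2, so that A549 was 2.61-fold lower by LIEA and 1.85-fold higher than Smart-seq2 (1.74 to 1.96). ITGA6 was at 11.6, 47.9 and 28.5 rpkM in the same order. HBE thus carried the defining basal markers, whereas in A549 KRT14, SNAI2 and NGFR had no reads and KRT15 was at 4.58 rpkM.

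Few alveolar type II markers were quantified in either line, as NKX2-1 was not. Of 12 type II markers, 4 were listed in no library, namely SFTPA1, SFTPA2, SFTPC and PGC, and 4 reached 10 reads in a library. SFTPB, a surfactant protein, was at 1.31 rpkM in A549, 1.24 in HBE LIEA and 1.36 in Smart-seq2. NAPSA, an aspartic protease of type II cells, had 7 reads in A549 and 0 in HBE. ABCA3, the lipid transporter of lamellar bodies, was the only type II marker called higher in A549, at 13.9 rpkM against 2.39 and 0.337 in the HBE libraries. CTSH and LPCAT1, which other tissues also use, had the highest levels of this list, with 80.4 and 54.97 rpkM in HBE LIEA and 13.9 and 22.7 in A549. Of 8 type I markers, AQP5 and HOPX were listed nowhere, and none of the 5 with at least 10 reads was called. Over all genes, 8.79% were called higher in A549 and 4.29% lower. The surfactant genes SFTPA1, SFTPA2 and SFTPC thus had no reads in A549, while ABCA3 was called higher there. Whether this bears on the label of A549 as alveolar was not tested.

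Over all 17 gut epithelial genes, the summed level was 264 rpkM in A549, 1.27 in HBE LIEA and 4.34 in Smart-seq2. Of the 17, 11 had at least 10 reads in A549, 0 in HBE LIEA and 3 in Smart-seq2. By the 4-fold rule 10 of the 11 were higher in A549, where 8.79% of all genes were. But 7 of these 10 reached 10 reads in A549 only and could be called in that direction only, so the count is no support for a direction. CEACAM6, an adhesion molecule of gut and lung carcinomas, was at 139.4 rpkM in A549, 0.167 in HBE LIEA and 1.76 in Smart-seq2. CDH17, a cadherin of intestinal epithelium, was at 28.6, 0.0587 and 0.330 rpkM in the same order, and TM4SF4, a tetraspanin-like protein of liver and intestine, at 29.2 rpkM in A549 and 0 in HBE. CDX1, TFF2, TFF3, REG4 and FABP1 were listed in no library, and CDX2, the intestinal master factor, had 7 reads in A549 and 0 in HBE.

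Of 17 hepatic genes known as targets of HNF4A and FOXA factors, 8 had at least 10 reads in a library. Among these 8, 6 were higher in A549 and 0 lower, where 8.79% and 4.29% of all genes were. Among the 6, 4 reached 10 reads in A549 only and could be called in that direction only. The summed level over the 17 was 157 rpkM in A549, 4.35 in HBE LIEA and 6.73 in Smart-seq2. The fibrinogen chain FGA had 832 reads in A549 and 0 in both HBE libraries, at 54.8 rpkM. CPS1, the mitochondrial enzyme that starts the urea cycle, was at 28.4 rpkM in A549, 1.58 in HBE LIEA and 1.20 in Smart-seq2. FGB and FGG were at 19.6 and 35.5 rpkM in A549. AFP, APOA1, APOA2, APOB and APOC3 were listed nowhere, and ALB and TTR had at most 2 reads in A549. SERPINA1, alpha-1 antitrypsin, was not called, with 7 reads in A549 and 19 and 30 in the HBE libraries.

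Of 12 airway secretory and ciliated markers, 7 had at least 10 reads in a library. Among these 7, 4 were higher in A549 and 0 lower, where 8.79% and 4.29% of all genes were. The gel-forming mucin MUC5B was at 66.7 rpkM in A549 against 1.48 in HBE LIEA and 0.357 in HBE Smart-seq2. AGR2, a disulfide isomerase of mucous cells, was at 263.5 rpkM against 1.10 and 4.65, and SPDEF, the ETS factor of goblet cells, at 34.2 against 2.16 and 3.34. TPPP3, a tubulin-binding protein of ciliated cells, was at 21.3 rpkM in A549, 0 in HBE LIEA and 2.74 in Smart-seq2. BPIFA1, a secreted protein of the upper airway, had the opposite order, with 114 reads in HBE LIEA (22.96 rpkM), 17 in Smart-seq2 (1.60 rpkM) and 0 in A549. With 0 set to 3 reads, BPIFA1 was 34.3-fold lower in A549 by LIEA and 2.39-fold lower than in Smart-seq2, which is not past the rule. SCGB3A1, SCGB3A2 and MUC5AC were listed in no library, and SCGB1A1, the club cell marker, had reads in Smart-seq2 only, 14 in number. FOXJ1, the master factor of cilia, had 8 reads in HBE LIEA and 0 elsewhere.

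Paralogs of the 9 factors were examined next, since several bind like sequences. Of 17 other SOX genes, 7 had at least 10 reads in a library, with SOX12, SOX17 and SOX21 higher in A549 and SOX7 and SOX15 lower. The shares over all genes were 8.79% higher and 4.29% lower. SOX17 and SOX21 reached 10 reads in A549 only, and SOX7 and SOX15 in HBE only. SOX15 was at 36.1 rpkM in HBE LIEA, 100.8 in Smart-seq2 and 1.55 in A549, well above SOX2 in HBE. SOX7 was at 26.2, 12.1 and 0.0734 rpkM. SOX21, which is known to act with SOX2 in the airway, had 94 reads in A549 and 0 in HBE. SOX12 was at 17.5 rpkM in A549, 2.24 in HBE LIEA and 0.0436 in Smart-seq2, so the HBE libraries differed from each other by more than A549 and HBE did by LIEA.

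Of 16 other KLF genes, 13 had at least 10 reads in a library, and KLF2, KLF4, KLF9 and KLF13 were higher in A549 with none lower. Of all genes, 8.79% were higher and 4.29% lower. KLF2, a factor known for quiescence and shear stress, reached 10 reads in A549 only and was at 55.5 rpkM in A549, 0.527 in HBE LIEA and 0.0616 in Smart-seq2. KLF13 was at 49.8, 11.7 and 0.269 rpkM in the same order, where again the HBE libraries were further apart than the lines by LIEA. KLF10, an early response gene of TGF-beta signalling, had the highest rpkM of these genes in A549, at 65.3, and was not called, with 12.3 rpkM in HBE LIEA and 18.0 by Smart-seq2.

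**Figure D4:**
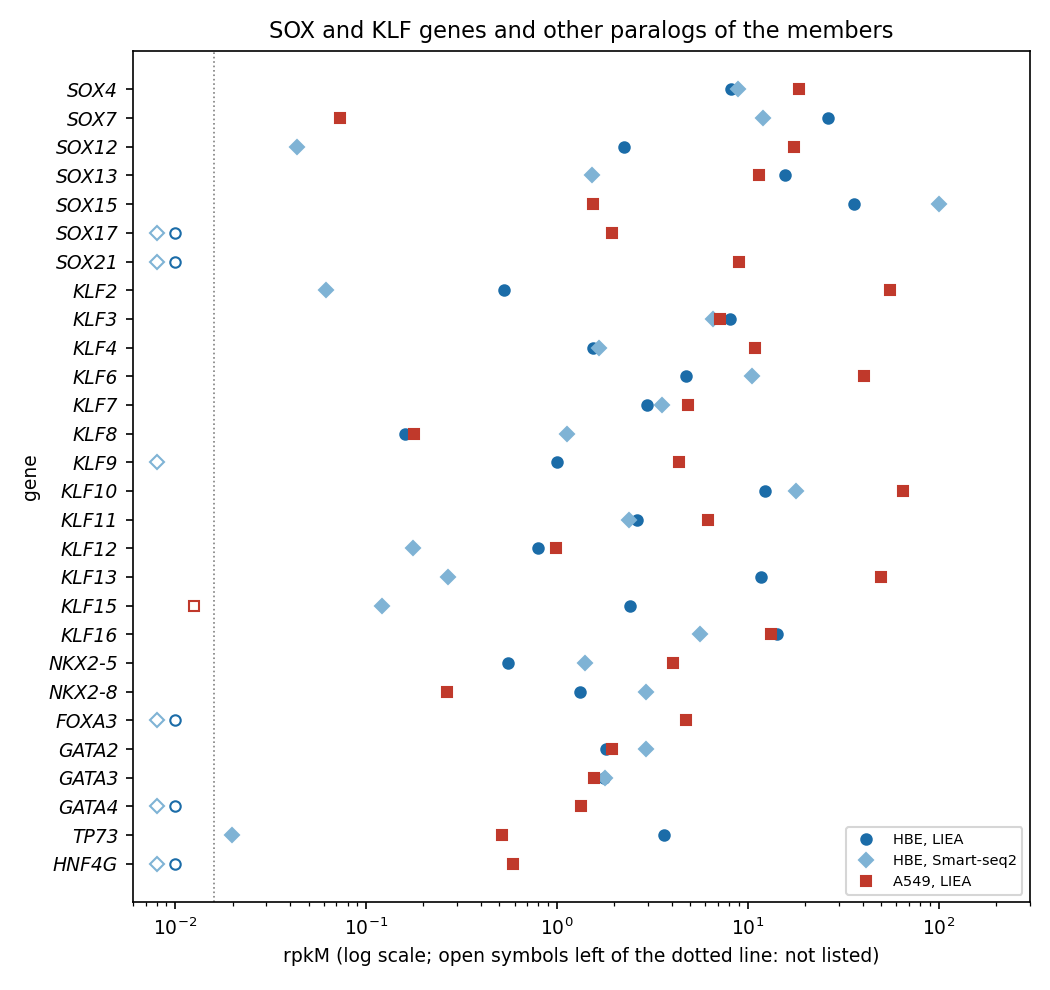
Level in rpkM (log scale) of SOX and KLF genes and other paralogs of the 9 factors with at least 10 reads in a library, for HBE LIEA (circles), HBE Smart-seq2 (diamonds) and A549 (squares); open symbols left of the dotted line stand for genes that were not listed. SOX17, SOX21, FOXA3, GATA4 and HNF4G have a level in A549 only, and SOX7 and SOX15 lie to the left of both HBE values in A549.

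Of 15 paralogs of the other factors, 9 had at least 10 reads in a library, and 2 of these, FOXA3 and GATA4, were higher in A549, where 8.79% of all genes were. Both reached 10 reads in A549 only and could be called in that direction only. FOXA3, the third member of the FOXA group and a factor of liver and gut, had 11 reads in A549 and 0 in HBE, and GATA4, of foregut and heart, 19 and 0. GATA3, a factor of squamous and luminal epithelia, was at 1.57 rpkM in A549, 1.77 in HBE LIEA and 1.79 in Smart-seq2. TP73, a close relative of TP63, had 86 reads in HBE LIEA, 11 in A549 and 1 in Smart-seq2, so its direction between the lines depends on the HBE library.

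Among 22 other regulators of lung and epithelial fate, 17 had at least 10 reads in a library, with 3 higher and 3 lower in A549, where 8.79% and 4.29% of all genes were. Of these, 2 of the higher genes passed the read minimum through A549 only, and the 3 lower genes through HBE only. ID2, an inhibitor of basic helix-loop-helix factors that marks distal lung tips, was at 93.01 rpkM in A549, 0.478 in HBE LIEA and 0.223 in Smart-seq2. GRHL2, the grainyhead factor of epithelial junctions, had 516 and 500 reads in the HBE libraries and 0 in A549. ELF3, an ETS factor of many epithelia, had the highest rpkM of this list in A549, at 285.7 against 75.3 and 37.2 in HBE.

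Markers of other cell types were also measured. Of 7 fibroblast markers only COL1A1 reached 10 reads, with 3.78 rpkM in A549 and 6.41 and 1.46 in HBE. The summed level of 6 endothelial markers was 52.98 rpm in HBE LIEA, 47.8 in Smart-seq2 and 2.89 in A549. Most of it in HBE was CDH5, with 10.8, 8.86 and 0 rpkM, while TEK was listed nowhere and KDR had at most 3 reads. The summed level of 7 blood cell markers was between 56.2 and 75.3 rpm, mostly from CD14, CD68 and LYZ, with CD3E, MS4A1 and HBB listed nowhere and PTPRC at no more than 3 reads. The part of such markers in the values of the 9 factors was not tested. In bulk libraries like these, fewer cells that use a gene and less RNA per cell cannot be told apart.

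Genes whose levels were most like those of a factor were sought by the Euclidean distance of log2(rpkM + 0.1) over the 3 libraries, among 14484 genes. HNF4A had 19 genes within a distance of 1, the fewest of the 8 factors, and the nearest were PRSS3 (0.40) and APBB1 (0.45). For TP63 46 genes were within 1, with POLM (0.29) and FJX1 (0.43) nearest, and for FOXA2 43, with PARVB (0.01) and CD70 (0.04) nearest. SEMA6C and P2RX6 were nearest to SOX2 (0.16 and 0.20). The other factors quantified in all 3 libraries had more genes near them, with LPGAT1 and GALT nearest to SOX9, RBM15B and TUBGCP6 to FOXA1, MAN1B1-AS1 and STARD5 to GATA6, and REXO2 and ACAA1 to KLF5, and from 226 to 483 genes within 1. With 3 libraries such likeness is common, and it is given as a description.

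The 9 factors lie on 6 chromosomes of GRCh37. FOXA2 (chr20:22561636-22566093, minus strand) and HNF4A (chr20:42984339-43061485, plus strand), both higher in A549, are 20418 kb apart on the same chromosome. SOX2 (chr3:181429713-181432224, plus strand) and TP63 (chr3:189349178-189615065, plus strand) are 7917 kb apart, SOX2 being higher and TP63 lower in A549 than in either HBE library. NKX2-1 (chr14:36985597-36990354) and FOXA1 (chr14:38058757-38065264) are 1068 kb apart on the minus strand, and only FOXA1 was quantified. GATA6 is at chr18:19749550-19782491, SOX9 at chr17:70117161-70122557 and KLF5 at chr13:73629114-73651679, all on the plus strand. Of the listed genes beside HNF4A, FITM2 was at 14.4 rpm in A549, 16.9 in HBE LIEA and 3.56 in Smart-seq2, and TTPAL at 27.9, 52.3 and 73.6 rpm in the same order. Beside TP63, CLDN1 was at 30.6, 23.0 and 69.98 rpm, and TPRG1 had 0, 11 and 2 reads. The direction of FITM2 and CLDN1 between the lines depends on the HBE library. The transcripts closest in length to those behind the values had a GC content from 42.4% for TP63 to 59.2% for FOXA2. FOXA1, with the largest difference between methods among the factors quantified in both HBE libraries, had 50.4%, and SOX9 had 51.1%. Whether GC content bears on the difference between methods was not tested.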

How the data were processed

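The authors made LIEA libraries with an Ion Total RNA-seq kit (Ion Proton) and Smart-seq2 libraries for an Illumina HiSeq, mapped reads to RefSeq-RNA with FANSe2, whose version is not given in the sources used here, and merged splice variants. The submitters' processing notes name hg19. The deposited values are log2 rpkM per gene, with no pseudocount and no row for genes without reads. RNase III fragmentation or oligo-dT priming, and amplification from 10 pg, can change the level of single genes.

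The design assumed read counts. As only log2 rpkM was given, reads were recovered as whole-number multiples of what 1 read is worth, which was possible for 18856 genes. Recovered reads summed to between 99.3% and 100.2% of the recovered totals. On simulated libraries of 18349 genes, 3 of 3 totals and the exact reads of 95.3% of genes were recovered. The simulated reads were drawn from the recovered reads and lengths, so this cannot show a wrong factor chosen in the data. Where reads and length could share a whole factor, annotated transcript lengths set it, and the smallest whole reads were an alternative. The factor was above 1 for 1495 genes. For some genes of the lists, such as KRT15, it is uncertain, and so are their reads, while their rpkM does not depend on it. Rows with date-like names (4 in each library) and 1589 blank rows were left out.

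Ratios used rpm, with conditional exact binomial intervals, and levels exact Poisson intervals (Python 3.11.15, scipy 1.17.1, pandas 2.3.3). With 1 library per condition no test was made. The members and the 13 gene lists were chosen with earlier results of these data known. Named by rule were the 9 factors, up to 4 genes past the 4-fold rule per list, the 2 highest per library, defining markers listed nowhere, and the 2 genes most like each factor. Other genes were named after their values were seen. Some genes of the lists are not reported here. The alternatives changed the scaling, pseudocount, read minimum, fold, read multiple and HBE library.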

Additional observations from a re-analysis of the deposited data

How the results depend on the processing

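No paired analysis was possible because HBE LIEA, HBE Smart-seq2 and A549 are single libraries, and no replicate could be left out. Of 37 alternative values of the counts, 31 stayed within 1.5 times the reported count and 6 did not. Among those 6, the 3 factors higher in A549 became 5 against HBE Smart-seq2 alone, and the 0 factors lower became 1, TP63, at 2-fold or against HBE LIEA alone. The 2 factors higher by LIEA than by Smart-seq2 became 1 on log2(rpkM + 1), 4 at 2-fold and 0 at 8-fold. The comparisons with 1 HBE library were chosen after seeing the data. With 8-fold or log2(rpkM + 1), SOX2 was no longer called and 2 factors were higher in A549. For single factors, 36 alternative log2 ratios stayed within the counting interval of the reported one, 12 lay outside it and 2 changed sign. That interval is wide for SOX2 (1.05 to 5.21). For FOXA2 between the lines and HNF4A between the methods, it holds the 3 reads set for 0 as fixed. SOX2 went from 2.81 to 1.16 on log2(rpkM + 1) and to 3.91 with HBE Smart-seq2. With HBE Smart-seq2 in place of HBE LIEA, the log2 ratio of A549 to HBE went from -0.66 to 2.08 for FOXA1 and from -0.76 to 0.19 for GATA6. Median-of-ratios scaling shifted all log2 ratios by 0.16 between A549 and HBE by LIEA and by -0.19 between the HBE libraries. The cause of these changes was not tested. Depth limits NKX2-1 and SOX2 most, with at most 4 and 19 reads.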
